A study of Mus musculus with 12 samples.

Results

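Genes that cells switch on in response to interferon-gamma were followed here through 9 mouse genes: the transcription factor gene Irf1, the immunity-related GTPase genes Iigp1, Igtp, Irgm1, Ifi47 and Tgtp1, the guanylate-binding protein genes Gbp2 and Gbp3, and the chemokine gene Cxcl9. They were taken by name, with every probe set that the platform annotation gives to one of them, which made 10 probe sets of the 12422 tested. For comparison, 8251 genes had a probe set annotated to them alone. Iigp1 has 2 probe sets, and the only probe set of Tgtp1 is annotated to Tgtp2 as well, so its values belong to this gene pair and cannot be divided between the copies. RNA was measured on 12 Affymetrix 3'-end expression arrays of C57Bl/6 mice. Of these, 8 arrays held leukemic cells with the TEL-JAK2 genotype, a fusion of the transcription factor TEL (Etv6) with the tyrosine kinase Jak2, from the thymus of terminally ill mice, and 4 arrays held wild-type thymocytes of mice aged 2 months. Both were suspensions of dissociated thymus, with no sort named in the labels. The sources used here give neither the age of the leukemic mice nor the promoter that drives the fusion. That each array is a different mouse is read only from the numbers in the titles, and the title of thymocyte array 4 gives none. The p-values thus speak of the spread between these arrays, part of which may be technical.

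In textbook accounts, interferon-gamma binds a receptor of Ifngr1 and Ifngr2 chains, whose kinases Jak1 and Jak2 pass the signal on. A promoter element called GAS marks many of the genes it switches on, and one early target, Irf1, encodes a factor that binds a further element, the ISRE, in later targets. The immunity-related GTPases and guanylate-binding proteins are later targets that act against bacteria and parasites inside cells, and Cxcl9 is a chemokine, made largely by myeloid cells, that attracts T cells and NK cells carrying the receptor Cxcr3.

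Across the series the arrays were alike in brightness, with median intensities from 66.5 to 70.2, and 59.6% to 65.4% of probe sets lay above the control level, the 95th percentile on the same array of 19 control probe sets for bacterial and yeast transcripts. Pairs of leukemia arrays correlated at 0.961 to 0.993 over probe sets, and pairs of thymocyte arrays at 0.990 to 0.997. All 13 thymocyte and T-cell markers measured had group means above the control level in both groups, with summed intensities of 11745 to 23962 in leukemias and 24007 to 25179 in thymocytes. By limma 5 of them fell and 1 rose, where 11.4% of all 8251 genes fell and 5.15% rose. The leukemias are numbered 1 to 8 and the thymocyte arrays 1 to 4 as names only.

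The promoter windows of these genes are shown because the members varied together across leukemias and are known targets of the GAS and ISRE pathway. RefSeq windows (GRCm38.p6, 250 bases before to 50 after each annotated start) were at hand for 9 gene symbols, Tgtp2 included and Iigp1 not. They were searched for the GAS element as TTCNNNGAA, which reads alike on both strands, and for an ISRE-like element as GAAA, any 2 bases and GAAA again, on either strand. The stretch from 120 bases before to 20 after the start is printed for the 7 genes with a match, 5′ to 3′ along the gene, with matched bases in capitals.
Irf1: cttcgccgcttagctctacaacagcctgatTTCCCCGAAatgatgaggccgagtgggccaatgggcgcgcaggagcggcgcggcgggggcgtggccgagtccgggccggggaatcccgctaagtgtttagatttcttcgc
Igtp: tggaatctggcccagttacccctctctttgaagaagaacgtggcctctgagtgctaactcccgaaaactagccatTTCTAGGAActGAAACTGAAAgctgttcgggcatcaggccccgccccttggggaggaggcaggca
Tgtp1: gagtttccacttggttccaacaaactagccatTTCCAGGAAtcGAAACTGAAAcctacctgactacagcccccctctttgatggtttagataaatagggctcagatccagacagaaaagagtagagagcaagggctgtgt
Tgtp2: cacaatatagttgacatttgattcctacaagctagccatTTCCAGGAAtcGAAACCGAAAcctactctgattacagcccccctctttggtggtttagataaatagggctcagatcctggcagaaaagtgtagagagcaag
Irgm1: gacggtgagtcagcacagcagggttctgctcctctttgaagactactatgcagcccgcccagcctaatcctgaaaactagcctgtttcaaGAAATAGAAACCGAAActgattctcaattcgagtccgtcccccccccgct
Gbp2: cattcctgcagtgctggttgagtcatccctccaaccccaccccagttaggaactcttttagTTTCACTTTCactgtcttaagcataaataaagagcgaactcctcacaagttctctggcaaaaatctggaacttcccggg
Gbp3: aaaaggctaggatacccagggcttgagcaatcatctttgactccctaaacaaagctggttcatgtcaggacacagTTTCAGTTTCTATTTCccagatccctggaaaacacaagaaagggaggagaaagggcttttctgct
These stretches lie at chr11:53769894-53770033 (plus strand) for Irf1, chr11:58199436-58199575 (plus strand) for Igtp, chr11:48992227-48992366 (minus strand) for Tgtp1, chr11:49064193-49064332 (minus strand) for Tgtp2, chr11:48871401-48871540 (minus strand) for Irgm1, chr3:142620543-142620682 (plus strand) for Gbp2 and chr3:142559924-142560063 (plus strand) for Gbp3.

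GAS matches stood in 4 of the 9 genes (Irf1, Igtp, Tgtp1 and Tgtp2), where 9.55% of all 27025 genes in the table held one. ISRE-like matches stood in 6 (Igtp, Irgm1, Gbp2, Gbp3, Tgtp1 and Tgtp2), against 3.99% of all genes. Both elements occurred in Igtp, Tgtp1 and Tgtp2, against 0.54% of all genes, and did not overlap in these 3. In each of them the GAS match began 11 bases before the ISRE-like match, at positions -45, -88 and -81 from the start in this order of genes. This spacing, looked for after the windows were read, occurred in 5 genes of the table, the others being Irgm2 and Gm12185. Tgtp1 and Tgtp2 have nearly the same sequence around these matches, so they do not count as independent occurrences. The pairs of ISRE-like matches in Irgm1 and in Gbp3 overlap each other. The windows of Ifi47 and Cxcl9, and the other annotated starts of Irf1 and Gbp3, held neither string of letters. A match is a description of the sequence and does not show binding.

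**Figure D1:**
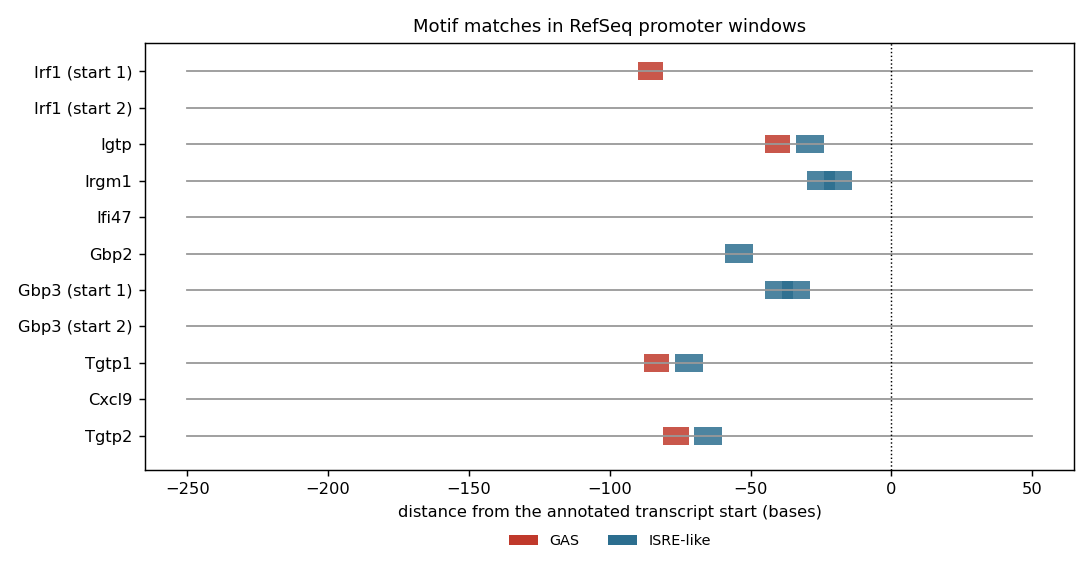
Motif matches in the RefSeq promoter windows of the member genes and Tgtp2, by distance in bases from the annotated transcript start (dotted line); red bars are GAS matches and blue bars ISRE-like matches. All matches lie between position -90 and the start, and Igtp, Tgtp1 and Tgtp2 carry both kinds side by side.

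Compared with wild-type thymocytes, the leukemias had more RNA of 4 of the 9 genes: the Tgtp1/Tgtp2 pair, Gbp3, Ifi47 and Irf1. By limma (adjusted p under 0.05, Benjamini-Hochberg over the 12422 tested), 4 of the 10 member probe sets rose and 0 fell, where 4.65% of all probe sets rose and 9.88% fell. At an unadjusted p under 0.05, 7 were higher, as were 9.52% of all probe sets, and 0 lower. All 10 differences were above 0, as were 51.9% of those of all probe sets, with a median of 1.15 on the log2 scale against 0.00716 over all probe sets. In 3 probe sets (Tgtp1/Tgtp2, Gbp3 and Irf1) every leukemia lay above every thymocyte array, as did 3.84% of all probe sets. The count of 4 depended on single arrays: without leukemia 4 it was 7, with Igtp, Irgm1 and Gbp2 added, and without thymocyte array 2, 3 or 4 it was 2, with Irf1 and Gbp3 lost each time.

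**Figure D2:**
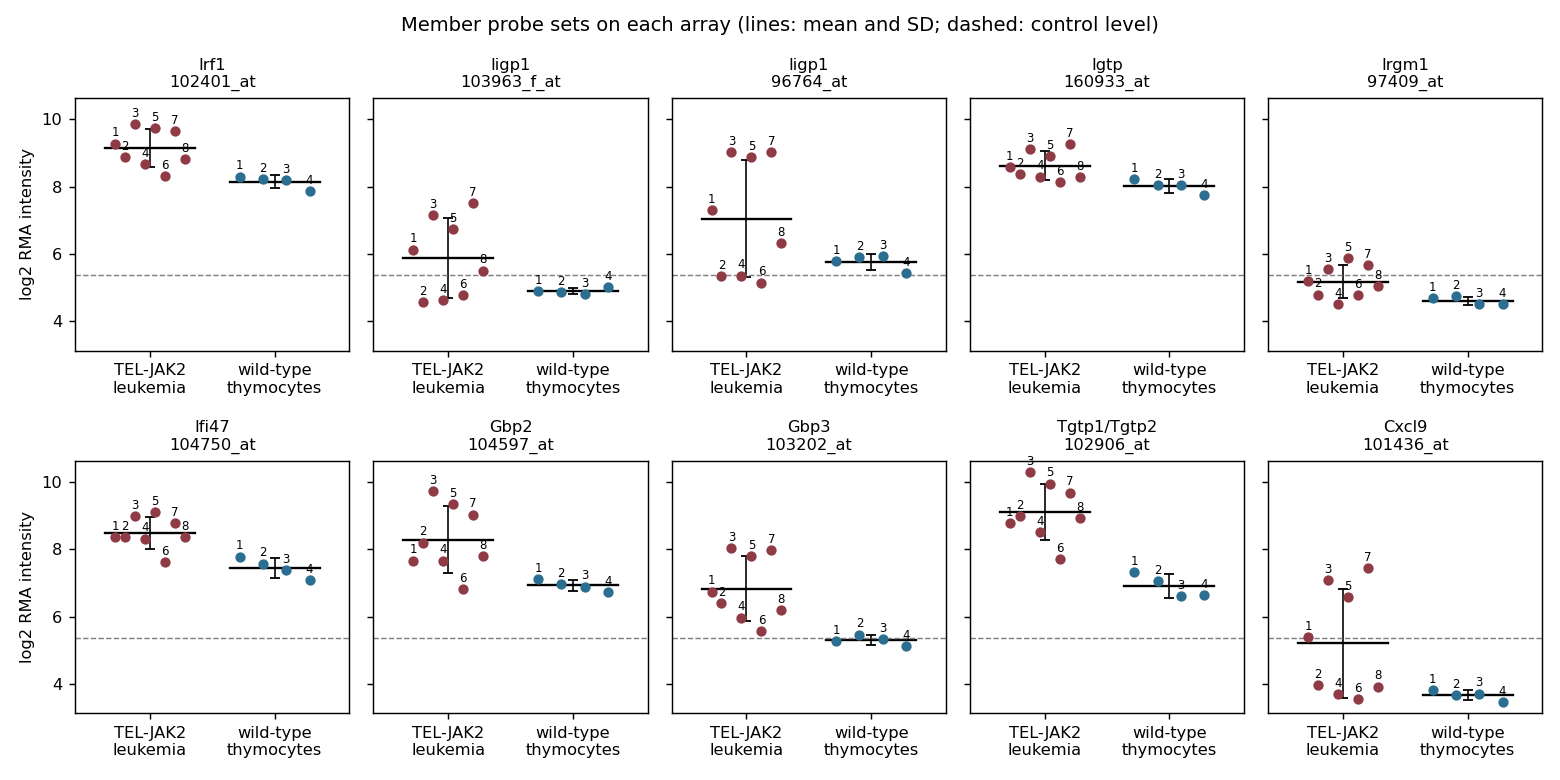
Log2 RMA intensity of each member probe set on every array, TEL-JAK2 leukemias left and wild-type thymocytes right, numbered by array; black lines are the mean and SD (n = 8 and n = 4), and the dashed line is the mean control level. Leukemias 3, 5 and 7 hold the 3 highest values in all 10 panels. By panel, the thymocyte arrays span 0.20 to 0.71 and the leukemias 1.13 to 3.88 on the log2 scale.

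Among the regulators, Irf1 (probe set 102401_at), the factor that relays the interferon-gamma signal to later genes, had log2 values from 8.31 to 9.86 with a median of 9.07 in leukemias, against 8.30, 8.22, 8.18 and 7.86 in thymocyte arrays 1 to 4. The groups did not overlap, but leukemia 6, the lowest, was only just above thymocyte array 1. The log2 change was 1.01 (SE 0.26, 95% confidence interval 0.44 to 1.57, limma adjusted p = 0.0191), a 2.01-fold increase. Leukemias 3, 5 and 7 were at 9.86, 9.75 and 9.65 and the next, leukemia 1, at 9.27.

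Among the immunity-related GTPases, Tgtp1/Tgtp2 was above the highest thymocyte array in 8 of 8 leukemias, Ifi47, Igtp and Irgm1 in 7, and both Iigp1 probe sets in 5. The Tgtp1/Tgtp2 probe set (102906_at) reads T-cell-specific GTPases, first described in T cells, whose promoters above hold the paired elements. It was at 8.77, 8.99, 10.29, 8.50, 9.95, 7.72, 9.69 and 8.91 in leukemias 1 to 8, against 7.32, 7.06, 6.61 and 6.65 in thymocyte arrays 1 to 4. Every leukemia was above every thymocyte array, leukemia 6 by the least. It averaged 9.10 ± 0.84 in leukemias (SD, n = 8) and 6.91 ± 0.34 in thymocytes (SD, n = 4). This was the largest change of the 10, at 2.19 on the log2 scale (SE 0.39, interval 1.36 to 3.03, limma adjusted p = 0.00177) or 4.57-fold.

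Ifi47 (104750_at), a GTPase gene also known as IRG-47, ranged from 7.62 to 9.09 in leukemias with a median of 8.36, against 7.78, 7.58, 7.38 and 7.08 in the thymocyte arrays. Only leukemia 6, at 7.62, overlapped the thymocytes. The change of 1.03 (SE 0.23, limma adjusted p = 0.00776) was a 2.04-fold increase. Ifi47 had no match to either element in its window.

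Igtp (160933_at) and Irgm1 (97409_at) belong to the regulatory subgroup of these GTPases, which holds other members inactive on the cell's own membranes. Igtp ranged from 8.13 to 9.26 in leukemias, with a median of 8.48, against 8.23, 8.05, 8.05 and 7.76 in thymocyte arrays. Its difference of 0.60 (SE 0.20) missed the threshold (limma adjusted p = 0.0659), and its interval ran from 0.16 to 1.03. Irgm1 was dim: only leukemias 3, 5 and 7, at 5.55, 5.88 and 5.67, lay above the control level of their own array, and the other 5 leukemias (4.52 to 5.18) and the thymocyte arrays (4.51 to 4.75) did not. The Irgm1 difference of 0.57 (SE 0.22) did not pass (limma adjusted p = 0.115).

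Iigp1 encodes an effector GTPase that settles on the vacuoles of intracellular pathogens, and its RNA had the largest SD among leukemias of the members. Probe set 96764_at was at 7.31, 5.34, 9.02, 5.36, 8.87, 5.15, 9.02 and 6.33 in leukemias 1 to 8, against 5.79, 5.91, 5.94 and 5.43 in the thymocyte arrays. Leukemias 2, 4 and 6 thus lay below every thymocyte array, and leukemias 1, 3, 5, 7 and 8 above every one. The low end is near the floor: leukemia 6 and thymocyte array 4 were below the control level of their own array, and leukemias 2 and 4 just above it. The dimmer probe set 103963_f_at, whose name marks possible cross-hybridization within a gene family, was at 6.13, 4.58, 7.15, 4.64, 6.73, 4.79, 7.52 and 5.50, against 4.89, 4.88, 4.82 and 5.01, and divided the leukemias in the same way. Only leukemias 1, 3, 5 and 7 and no thymocyte array were above their own control level for this probe set. Neither difference passed. For 96764_at it was 1.28 (SE 0.77, interval -0.38 to 2.95, limma adjusted p = 0.337). For 103963_f_at, whose thymocyte mean lay below the control level, the measured difference was 0.98 (SE 0.52, interval -0.15 to 2.11, limma adjusted p = 0.267).

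The guanylate-binding proteins are larger GTPases that coat and help to rupture pathogen vacuoles. Gbp3 (103202_at) was at 6.74, 6.40, 8.03, 5.97, 7.79, 5.58, 7.98 and 6.18 in leukemias 1 to 8, against 5.28, 5.47, 5.33 and 5.12 in the thymocyte arrays, with no overlap. The thymocyte mean lay below the control level, so the increase was at least 2.69-fold (measured log2 change 1.54, SE 0.43, limma adjusted p = 0.0292). Leaving out any 1 thymocyte array, or adding 16 to the intensities before taking log2, ended this call. Gbp2 (104597_at) was at 7.67, 8.20, 9.74, 7.66, 9.33, 6.83, 9.03 and 7.80, against 7.12, 6.98, 6.89 and 6.73. Leukemia 6 alone overlapped the thymocytes, and the difference of 1.35 (SE 0.44, interval 0.39 to 2.31) just missed the threshold (limma adjusted p = 0.0592). Without leukemia 4 or leukemia 6, Gbp2 passed.

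Cxcl9 (101436_at) was at 5.39, 3.97, 7.08, 3.70, 6.59, 3.55, 7.43 and 3.92 in leukemias 1 to 8, against 3.81, 3.68, 3.72 and 3.47 in the thymocyte arrays. Leukemias 3, 5 and 7 were above the control level of their own array, and no other array of either group was, leukemia 1 included. The difference of the measured values, 1.54 on the log2 scale (SE 0.72, interval -0.03 to 3.10), did not pass (limma adjusted p = 0.202), and no fold is given because both group means lay below the control level. In such bulk samples, fewer cells of a type and less RNA per cell cannot be told apart.

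**Figure D3:**
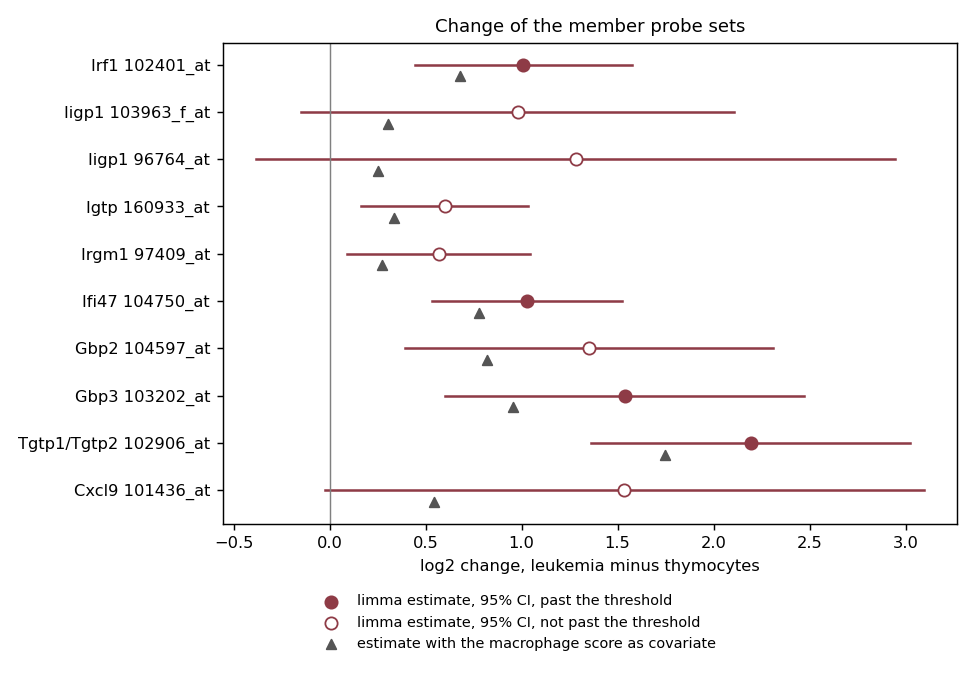
Log2 change of each member probe set, leukemia minus thymocytes, with its 95% confidence interval (circles, filled where the limma adjusted p is under 0.05), and the estimate with the macrophage marker score as a covariate (triangles). The 4 filled circles are Irf1, Ifi47, Gbp3 and Tgtp1/Tgtp2; the intervals of both Iigp1 probe sets and of Cxcl9 include 0.

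All 10 member probe sets had a larger SD among leukemias than among thymocyte arrays, from 1.57 times for Ifi47 to 14.4 times for Iigp1 103963_f_at. The SD among leukemias had a median of 0.90 over the 10 probe sets, against 0.18 among thymocyte arrays; over all probe sets the medians were 0.17 and 0.11. Iigp1 (96764_at) had an SD of 1.74 among leukemias, which 0.0805% of all probe sets reached, Cxcl9 one of 1.63, which 0.145% reached, and Gbp2 one of 0.99, which 0.676% reached. Igtp, the steadiest, had 0.42, which 7.31% reached. Some members were also spread among thymocyte arrays. There Tgtp1/Tgtp2 had an SD of 0.34, which 1.81% of all probe sets reached, and Ifi47 one of 0.30, which 2.94% reached. For the other member probe sets this share ran from 7.23% to 73.2%. These SDs rest on 8 and 4 arrays.

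Leukemias 3, 5 and 7 were the 3 highest in all 10 probe sets, as in 2.52% of all probe sets on the array. The order of the other leukemias differed by gene: leukemia 2 was the next highest for Tgtp1/Tgtp2 and Gbp2, and leukemia 1 for Irf1 and Gbp3. Leukemia 2 was the lowest for Iigp1 103963_f_at, but there leukemias 2, 4, 6 and 8 lay below the control level of their own array. Leukemia 6 was the lowest leukemia in 8 of the 10, as in 20.1% of all. Over the 8 leukemias, Pearson correlations between pairs of member probe sets ran from 0.771 (Ifi47 and an Iigp1 probe set) to 0.988, as a description of 8 points of which these 3 lie apart from the other 5. The gap between the third and the fourth leukemia differed by gene, at 1.56 for Iigp1 (96764_at), 1.20 for Cxcl9 and 1.05 for Gbp3, and 0.33 for Igtp, 0.37 for Irgm1 and 0.38 for Irf1, all on the log2 scale.

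The mean scores of macrophage, dendritic cell and B-cell markers were also highest in leukemias 3, 5 and 7. Of 18 macrophage markers 16 were measured, none passed the limma test between the groups (4 were higher at an unadjusted p under 0.05), and 11 had their 3 highest leukemia values in leukemias 3, 5 and 7. Their mean score, in log2 units above the thymocyte mean, was 0.71, 1.07 and 1.28 in leukemias 3, 5 and 7, from -0.23 to 0.23 in the other 5 leukemias, and from -0.14 to 0.15 in the thymocyte arrays. The summed marker intensity ranged from 1344 to 5903 in leukemias and from 1444 to 1898 in thymocytes. The complement gene C1qb, for example, was at 8.62, 9.17 and 9.39 in leukemias 3, 5 and 7 and between 6.08 and 7.15 in the other 5, against 6.21 to 7.05 in thymocytes. The defining markers Adgre1 and Itgam, with Mrc1, Msr1 and Fcer1g, had group means below the control level in both groups. Dendritic cell markers, of which 0 of 7 passed limma (1 at an unadjusted p under 0.05), had mean scores of 0.32, 0.29 and 0.25 in leukemias 3, 5 and 7, from -0.16 to 0.20 in the other 5 leukemias, and from -0.04 to 0.03 in thymocytes. B-cell markers, of which 0 of 7 passed limma (2 at an unadjusted p under 0.05), had scores of 0.48, 0.62 and 0.80 in leukemias 3, 5 and 7, from -0.06 to 0.25 in the other 5, and from -0.01 to 0.01 in thymocytes. Of the single markers, 1 of 7 for dendritic cells and 2 of 7 for B cells had leukemias 3, 5 and 7 as their 3 highest. The part of these cell types in the members' values was not tested.

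Leukemias 2, 4, 6 and 8 had macrophage scores of 0.09, -0.23, -0.11 and -0.06, no higher than the thymocyte range, and their Tgtp1/Tgtp2 values of 8.99, 8.50, 7.72 and 8.91 all lay above the highest thymocyte array, at 7.32. In the same leukemias Cxcl9 was at 3.97, 3.70, 3.55 and 3.92, against a highest thymocyte value of 3.81. Iigp1 (96764_at) was at 5.34, 5.36, 5.15 and 6.33, against a highest thymocyte value of 5.94. For Gbp3 and Irf1 these leukemias all lay above every thymocyte array. For Igtp, Ifi47 and Gbp2 all but leukemia 6 did, and for the dim Irgm1 all but leukemia 4. Once the macrophage score entered the model, the changes of Tgtp1/Tgtp2 (1.75, SE 0.26, limma adjusted p = 0.000646), Gbp3 (0.95, adjusted p = 0.00398), Ifi47 (0.78, adjusted p = 0.00756) and Irf1 (0.68, adjusted p = 0.0079) passed the limma test, and Igtp passed as well (0.33, adjusted p = 0.0408). These are 5 of the 10 probe sets, where 4.47% of all were higher in this model. The other 5 did not pass by limma: Gbp2 (0.82, adjusted p = 0.0784), Irgm1 (0.27, adjusted p = 0.112), Cxcl9 (0.54, adjusted p = 0.251) and the Iigp1 probe sets 96764_at (0.25, adjusted p = 0.73) and 103963_f_at (0.30, adjusted p = 0.561). All 10 estimates were smaller than without the score. The score comes from the same arrays as the members, and 5 of its 16 markers had means below the control level in both groups. The model with the score therefore does not measure the part of macrophage content in the members' values, which was not tested.

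**Figure D4:**
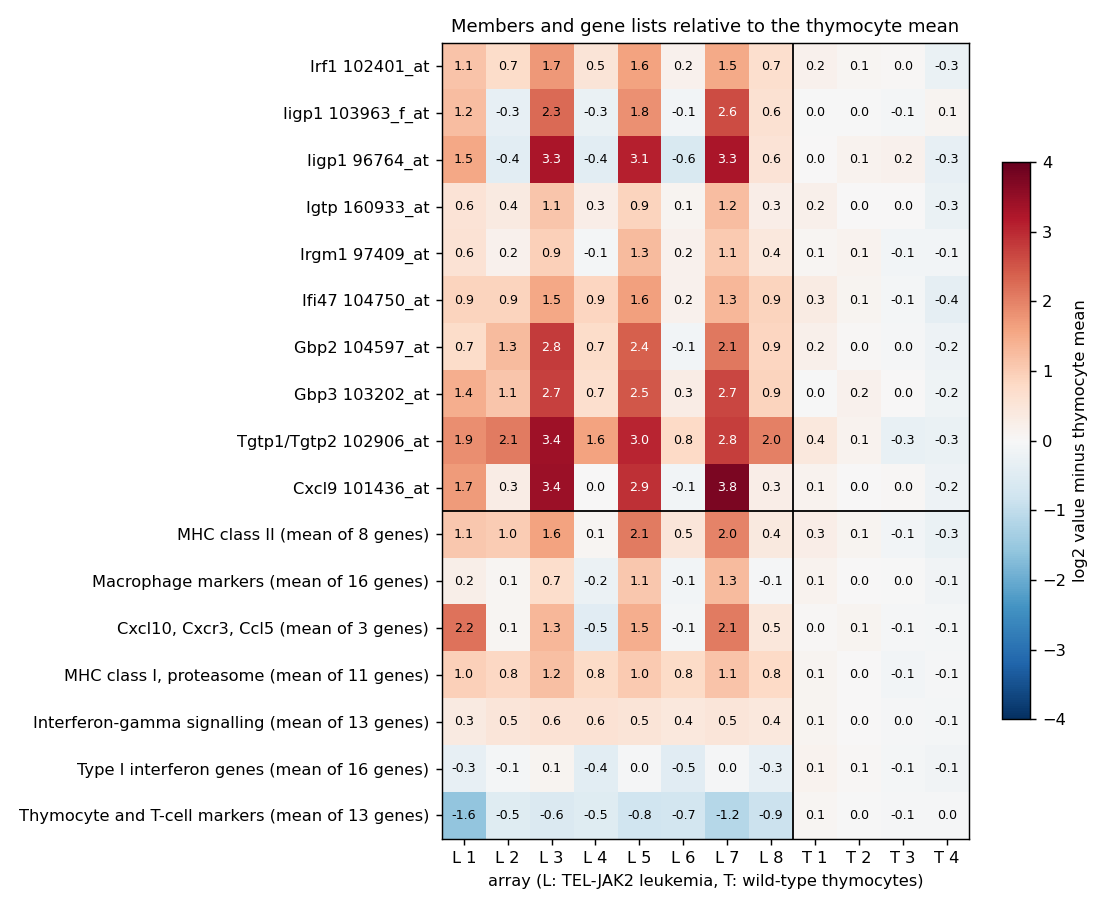
Log2 value minus the thymocyte mean for each member probe set (upper block) and the mean over the genes of 7 lists (lower block), in leukemias 1 to 8 (L, left) and thymocyte arrays 1 to 4 (T, right). Leukemias 3, 5 and 7 are the darkest red columns for the members, MHC class II genes and macrophage markers. The mean of the MHC class I genes is 1.04 to 1.20 in these 3 leukemias and 0.78 to 0.95 in the other 5.

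The labels name no batch, but 4 leukemias and 3 thymocyte arrays have titles with a number of 4 digits and the other 5 arrays, 4 leukemias and 1 thymocyte array, do not. The difference of Tgtp1/Tgtp2 was 2.44 within the arrays with such a number and 2.13 within the others, that of Ifi47 1.11 and 1.19, that of Gbp3 1.69 and 1.50, and that of Irf1 1.05 and 1.15. All 10 probe sets had a difference above 0 in both sets of arrays. Leukemias 3 and 5 belong to the first set and leukemia 7 to the other.

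The signalling arm above these genes was measured through 13 of 14 listed genes, with 1 probe set per gene (the brightest). Of these 4 rose, 1 fell and 8 did not pass, with a median change of 0.12 against 0.0037 over all genes, where 5.15% of all 8251 genes rose and 11.4% fell. Ifngr1, the ligand-binding receptor chain, was at 9.36, 10.28, 9.97, 10.41, 10.02, 10.31, 9.30 and 10.02 in leukemias 1 to 8, against 8.75, 8.75, 8.57 and 8.57 in thymocytes, and rose 2.46-fold (limma adjusted p = 0.000571). Leukemias 4 and 6, with the low member values, were the highest for Ifngr1. The negative regulators Socs3 (log2 change 1.67), Ptpn1 (2.05) and Ptpn2 (0.55) rose, and Pias1, a SUMO ligase gene, fell by 0.38. Socs1, the feedback inhibitor of this receptor, had a difference of 0.56 (limma adjusted p = 0.0698), and Jak1 one of 0.04.

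The ligand gene Ifng itself was below the control level in both groups, at 3.73, 3.06, 3.86, 2.89, 3.83, 3.29, 4.29 and 3.41 in leukemias 1 to 8 against 2.97, 3.03, 2.92 and 2.82 in thymocytes, and gives no usable level. Of 12 genes that promote its production 10 were measured and 3 rose, with a median change of 0.17. They were the interleukin-12 receptor chains Il12rb1 (log2 change 0.89, adjusted p = 0.00259 by limma) and Il12rb2 (at least 1.22-fold, with the thymocyte mean below the control level) and the factor gene Stat4 (0.75), and in each of them every leukemia lay above every thymocyte array.

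**Figure D5:**
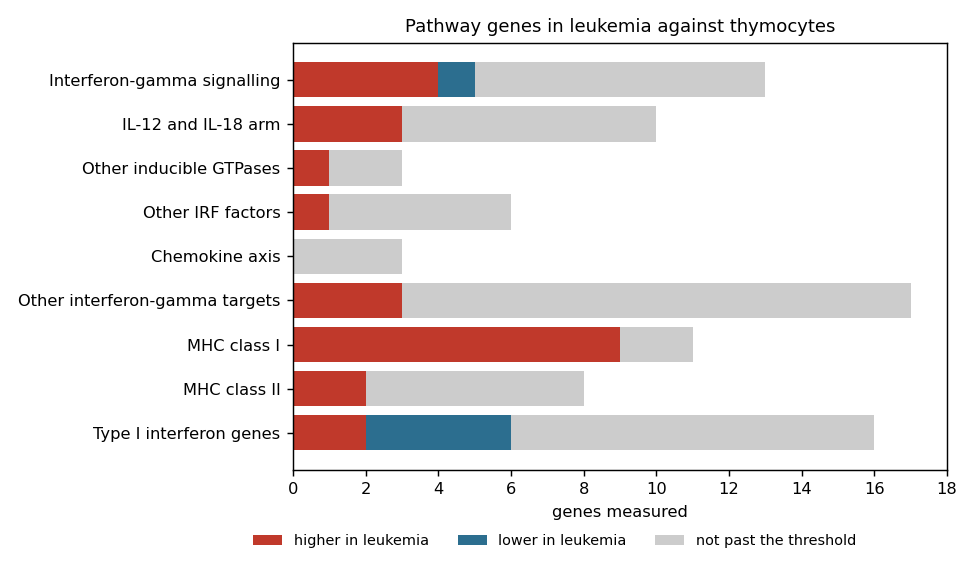
Number of genes measured in each pathway list (bar length) that were higher in leukemia (red), lower (blue) or not past the limma threshold (grey), leukemia against thymocytes. MHC class I genes have 9 of 11 higher, and type I interferon genes 2 higher and 4 lower of 16.

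Of 14 other GTPases of these families 3 were measured. Gbp7 was at 8.18 to 9.29 in leukemias, with every one above the thymocyte arrays (7.60, 7.60, 7.62 and 7.15), and rose 2.43-fold (limma adjusted p = 0.00059). Irgm2, whose window holds the same pair of elements as Igtp, ranged from 7.22 to 8.77 in leukemias against 7.94, 7.82, 7.89 and 7.31, and its difference of 0.32 did not pass. In all 3, Gbp2b included, leukemias 3, 5 and 7 were again the 3 highest, but the means of Gbp2b lay below the control level in both groups. Of 8 other IRF genes 6 were measured and only Irf8, a factor of myeloid and lymphoid cells, rose (log2 change 1.20, SE 0.35, limma adjusted p = 0.0336), with 9.10, 8.77 and 9.02 in leukemias 3, 5 and 7 and 7.26 to 8.39 in the other 5, against 6.57 to 7.22 in thymocytes.

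On the chemokine side, none of the 3 genes measured of 5 passed limma, at an unadjusted p under 0.05 either. Cxcl10, which shares the receptor Cxcr3 with Cxcl9, was below the control level in both groups, at 2.94 to 4.00 in leukemias and 3.08 to 3.29 in thymocytes. Cxcr3 was at 7.31, 6.18, 6.48, 5.82, 6.70, 5.90, 7.26 and 6.27 in leukemias 1 to 8, against 5.88, 5.98, 5.93 and 6.06 in thymocytes. Ccl5, a chemokine of activated T and NK cells and macrophages, was at 11.74, 6.95, 9.99, 5.88, 10.32, 6.35, 11.02 and 7.80, against 7.03, 7.12, 6.84 and 6.39. Leukemia 1 was the highest for both Cxcr3 and Ccl5, which it was for no member.

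Antigen presentation genes are further targets of interferon-gamma. Of 11 MHC class I and immunoproteasome genes measured 9 rose and 0 fell, with a median change of 0.95. In 2 of the 11, leukemias 3, 5 and 7 were the 3 highest, as in 2.52% of all probe sets. The mean score of these genes was also highest in these 3 leukemias, at 1.04 to 1.20 against 0.78 to 0.95 in the other 5. Of 8 MHC class II genes 2 rose, H2-DMa (log2 change 1.29) and H2-Oa (means of 8.90 in leukemias and 7.90 in thymocytes), with a median change of 1.05, and 7 of 8 had leukemias 3, 5 and 7 as their highest, as did the members. Cd74, the class II chaperone, had a difference of 1.16 that did not pass (limma adjusted p = 0.0597). Of 17 other listed targets 3 rose: the proteasome activator Psme1 (0.76), the secreted glycoprotein gene Lgals3bp (0.84) and the tRNA synthetase gene Wars (0.54). Nos2, the inducible nitric oxide synthase of activated macrophages, was below the control level in both groups.

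Of 25 listed genes known mainly as targets of type I interferon 16 were measured, of which 4 fell, 2 rose and 10 did not pass, with a median change of -0.22. Ifi27l2a fell by 1.35 and Usp18, which removes ISG15 from proteins, by 0.67 on the log2 scale. The other 2 that passed downward, Ifit1 and Ifit2, had means below the control level in both groups, so no size is given for them. Isg20 (0.74) and Ifi35 (0.67) rose. Whether this list differs from the members was not tested.

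Outside the members and among 5900 genes with a mean above the control level, the 8 genes whose pattern over the 8 leukemias was most like the members' mean profile were Fabp5, Dbnl, Trafd1, Il12b, Ifitm3, C1qb, Sat1 and Cd9, with Pearson correlations of 0.967 for Fabp5, a fatty acid-binding protein gene, to 0.958 for the tetraspanin gene Cd9. The profile is itself made of 3 arrays far above the other 5, so these values describe which genes share that division. They do not measure its size: over the leukemias Il12b ranged only from 5.94 to 6.23 and Fabp5 from 6.85 to 7.31. Of the 8, 1 was still among the most alike without leukemia 3, 3 without leukemia 1 or 6, 5 without leukemia 2, and 6 or 7 without one of the others. Ifitm3, an interferon-induced antiviral membrane protein gene, was at 8.55, 8.99 and 9.10 in leukemias 3, 5 and 7 and at 6.32 to 7.49 in the other 5, against 6.76 to 7.18 in thymocytes. Of the 8 only Dbnl, an actin-binding adaptor gene, passed the test between the groups (log2 change 0.43, limma adjusted p = 0.0058).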

How the data were processed

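The authors deposited 1 linear intensity for each probe set and array, computed with RMA per the submitters' processing notes; no version of RMA and no later step is named in the sources used here. The deposited intensities were all above 0 and were converted to log2 with no offset or further normalization. Of 12488 probe sets, 66 Affymetrix controls were left out and 12422 tested. The platform annotation gave 1 gene for 10833 of these, several for 396 and none for 1193, with symbols updated through a RefSeq table of GRCm38.p6. The 2-sided comparison of the groups, without covariates, used lmFit and eBayes of limma 3.58.1 (R 4.3.3), with Benjamini-Hochberg adjustment across every tested probe set and a threshold of 0.05. Each adjusted p comes from this model, except those given with the macrophage score, which was added there as a covariate. For pathway genes the brightest probe set over all 12 arrays was read from the same fit. The script was tested on simulated data. A group was called below the control level where its mean lay below the mean of the 95th percentile of 19 control probe sets, and a fold against 1 such group is a lower bound, from the mean, over the dimmer group's arrays, of the higher of the control percentile and the measured value. All members were named, with pathway genes that passed or had one of the 4 largest moderated statistics of their list, and the 8 genes most like the members' profile; further genes (Ifng, Irgm2, Cd74 and others that did not pass) were picked with their values in view. The members and the lists were chosen with earlier results of these data known. The number of arrays limits the precision. Alternatives covered brightness, normalization, an offset of 16, the variance model, single arrays left out, title numbers, the macrophage score, the threshold and 1 probe set per gene; the arrays without a title number of 4 digits alone were added after seeing the data.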

Additional observations from a re-analysis of the deposited data

How the results depend on the processing

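All 10 member differences were above 0 in every setting run in which the probe set was tested. The count of member probe sets that rose (4) was 7 with array weights and a variance per group, 2 at an adjusted p under 0.01, and 2 to 7 when 1 array was left out. In the arrays without a title number of 4 digits, with a single thymocyte array assumed to vary like the leukemias, limma called 0 (3 at an unadjusted p under 0.05) of the members and 13 of all probe sets. With the title number as a block the member count was 5, within the arrays with a 4-digit number 5, and with quantile normalization 6. Among the brighter part of the probe sets it was 6 of the 7 member probe sets tested. Of all 12422 probe sets, 578 rose in the main fit, 809 with array weights and 333 at an adjusted p under 0.01. The number was 679 with the block, 688 within the 4-digit arrays, 631 with quantile normalization and 390 to 618 without 1 array. Among the brighter part it was 510 of the 6211 tested. Tgtp1/Tgtp2 and Ifi47 lost their call only in the arrays without a 4-digit number. Irf1 lost it there, at an adjusted p under 0.01 and without thymocyte array 2, 3 or 4. The count over all probe sets (1805) was 1008 at an adjusted p under 0.01 and 1162 to 2044 without 1 array, lowest without thymocyte array 1 (1162) and 2 (1185). Of the pathway genes 30 passed, and 31 when probe sets of the same gene were averaged. Of the 8 genes most like the members 1 remained with Spearman correlation, and 1 to 7 without 1 leukemia. No paired analysis was possible because the labels give no replicate numbers shared by the groups. Signals near the control level limit Irgm1, Iigp1, Gbp2b, Cxcl9, Ifng and Cxcl10.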

Other observations

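Thymocyte array 4, the array whose title gives no number, was the lowest thymocyte array in 8 of the 10 member probe sets, as in 30.4% of all probe sets.

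Neutrophil markers, with 4 of 8 lower in leukemia by limma where 11.4% of all genes were, had scores of -0.72 to -0.32 in leukemias and -0.10 to 0.15 in thymocytes.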
